A study of Mus musculus with 2 samples.

Results

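The 274 cell barcodes described here came from a mouse skin melanoma, carried transcripts of dividing pigment cells and held very little Malat1, a long RNA that stays in the nucleus. They were chosen by measured values, so the genes used for the choice are described below without a test. A barcode first had to show at least 500 genes and less than 10% mitochondrially encoded UMIs, the unique molecular identifiers that count captured RNA molecules. It then needed at least 5 UMIs of the melanocyte genes Dct, Pmel, Mlana and Tyrp1 together, and at least 2 times the UMIs of each of the panels for lymphatic endothelium (Ccl21a, Prox1, Lyve1, Flt4, Mmrn1), blood endothelium (Flt1, Plvap, Emcn, Gpihbp1, Cd34), macrophages (C1qa, C1qb, Tyrobp, Lyz2) and pericytes or fibroblasts (Rgs5, Acta2, Col1a1, Col3a1). Malat1 had to be under 0.1% of its UMIs, and at least 3 of the 6 cycling genes Mki67, Top2a, Cenpf, Birc5, Cdk1 and Ube2c had to be detected. The 274 barcodes were 95 of the Cre plus library and 179 of the Cre minus library, out of 1417 barcodes that passed the melanoma gate, 3334 that passed the first filters and 4993 in all. They are called the cycling Malat1-poor barcodes.

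B16F10-OVALBUMIN/ VEGFC, a mouse melanoma line whose name gives an ovalbumin and a VEGFC addition, was injected into the skin of mice at 500000 cells. The hosts were Ifngr1iProx1 mice (Cre plus) or Ifngr1WT mice (Cre minus), whose ages the labels do not give. The genotype names point to Ifngr1, a chain of the interferon-gamma receptor, and to Prox1, a transcription factor of lymphatic endothelium. After 15 days, 3 tumors of each genotype were pooled, and DAPI-, CD31+, CD45- cells, a gate for live endothelial cells, were sorted and sequenced as 1 library per genotype, labelled as endothelial cells of skin tumor. With 1 library per genotype there is no replicate, no difference was tested, and the genotype, the pool of tumors, the sort and the library cannot be told apart. Paired values are given for Cre plus first and Cre minus second. Brackets hold exact 95% intervals, which cover only the error of counting. Sequencing gave the Cre plus library 66704257 UMIs in 2491 barcodes and the Cre minus library 76967583 UMIs in 2502. A single barcode sequence occurred in both libraries, and it belonged to a barcode of the set in 1 of them. The genotype concerns the host, and the implanted line was the same in both arms. Ifngr1, the receptor chain named in the genotype, had 36 and 68 UMIs in the set, 9.94 and 9.92 CPM (UMIs of a gene per 1000000 UMIs of the class), which is no check of the host's deletion.

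A dividing cell makes its replication enzymes and histones during S phase, when DNA is copied, and its mitotic kinases, spindle and kinetochore proteins in G2 phase and mitosis. E2F factors control many of the S phase genes. Many genes of mitosis are controlled through the DREAM and B-MYB–FOXM1 complexes, which act at a CHR element and at CCAAT boxes bound by NF-Y, close to the start of the gene. Malat1 marks nuclear RNA and the mitochondrial transcripts mark organelles. Which compartments of a cell contributed RNA to a barcode was not measured. B16F10 is a pigmented line, and Dct, Pmel, Mlana and Tyrp1 encode an enzyme, a scaffold and other proteins of the pigment granule.

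The promoters of 4 of the 6 cycling genes are shown because they carry, or lack, the letters through which such genes are usually described. Each line gives the 120 bases before the gene's start, from RefSeq on the GRCm38.p6 build, written 5′ to 3′ on the gene's strand. Capitals mark a match to the CHR element, searched as TTTGAA, as its reverse complement TTCAAA, and as the palindrome TTCGAA. They also mark a CCAAT box, which reads ATTGG on the other strand, and no matches overlapped in these windows. Cdk1 (chr10:69352913-69353032, minus strand) had 2 CHR and 2 CCAAT matches, Ube2c (chr2:164769809-164769928, plus strand) 1 and 2, Top2a (chr11:99024190-99024309, minus strand) 2 and 3, and Birc5 (chr11:117849117-117849236, plus strand) 0 and 0.
Cdk1: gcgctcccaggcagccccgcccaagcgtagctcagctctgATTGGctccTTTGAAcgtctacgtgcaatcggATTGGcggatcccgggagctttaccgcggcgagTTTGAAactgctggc
Ube2c: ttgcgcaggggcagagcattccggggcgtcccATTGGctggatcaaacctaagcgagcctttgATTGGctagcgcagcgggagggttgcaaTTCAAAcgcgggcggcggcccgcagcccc
Top2a: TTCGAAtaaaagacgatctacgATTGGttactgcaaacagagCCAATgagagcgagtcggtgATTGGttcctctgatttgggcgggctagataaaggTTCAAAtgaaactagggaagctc
Birc5: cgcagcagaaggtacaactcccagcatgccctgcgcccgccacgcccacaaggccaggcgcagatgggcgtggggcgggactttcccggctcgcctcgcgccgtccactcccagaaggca

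Over the 250 bases before the start, on both strands, CHR letters stood in 37.0% of the promoters of mitosis genes (17 of the 46 matched by symbol), in 13.8% of those of replication genes (4 of 29) and in 17.4% of all 27025 promoters. CCAAT letters stood in 76.1% of the mitosis promoters (35), 55.2% of the replication promoters (16) and 34.5% of all. The E2F letters TTTCCCGC, TTTGCCGC, TTTCGCGC and TTTGGCGC, with their reverse complements, stood in 2.17% of the mitosis promoters (1), 24.1% of the replication promoters (7) and 1.91% of all. A match describes the letters in this window and is not a site of binding.

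The melanocyte genes of the gate were among the more abundant messages, and other genes of pigment cells were present beside them. Summed over barcodes, Dct stood at 7745 CPM and 8494 CPM, Pmel at 3146 and 3838 CPM, and the melanocyte transcription factors Mitf and Sox10 at 223 and 262 CPM and at 118 and 116 CPM. Kit had 1 and 9 UMIs in all. The 22 pigment cell genes together ranged over the Cre plus barcodes from 1854 through a median of 9376 to 49826 CPM, and over the Cre minus barcodes from 1363 through 12569 to 49503 CPM. Every barcode had RNA of these genes, over a wide range, as the gate requires.

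The labelled cell type, endothelium, was nearly absent from these barcodes by its defining markers. The gate limited the lymphatic, blood endothelial, macrophage and pericyte or fibroblast panels. Low values of their genes, Flt1 among them, and of the lists that hold them thus follow in part from the rule. Pecam1, Cdh5, Ptprc, Csf1r, Dcn, Lum and the pan-endothelial list were not part of the gate. Pecam1, the gene of CD31, was at 1.38 and 3.06 CPM, and 5 and 21 UMIs. Ptprc, the gene of CD45, had 0 UMIs in both libraries, as had the macrophage receptor gene Csf1r and the fibroblast genes Dcn and Lum. Cdh5, the endothelial cadherin gene, had 2 and 2 UMIs, and Flt1 had 0 and 7. Of the 10 pan-endothelial genes, 8 and 10 were detected, summing to 146 and 119 CPM. Most of that came from Egfl7 (80.9 and 57.9 CPM) and Eng (44.5 and 43.0 CPM), and the Malat1-poor melanoma barcodes with fewer cycling genes held 140 and 133 CPM of the same list. The lymphatic list summed to 37.0 and 38.1 CPM, of which Pdpn, which many cell types express, gave 23.8 and 29.5 CPM. The macrophage list summed to 9.12 and 17.5 CPM with 5 and 8 of 10 genes detected, the blood endothelial list to 12.7 and 13.3 CPM, and the pericyte and fibroblast list to 6.08 and 5.69 CPM. Of 7 genes of T and NK cells, only Ccl5 was detected, at 5.52 and 9.19 CPM. In 52 and 104 barcodes no UMI of the other panels was found, and in 9 and 19 there were 3 or more. No doublet caller was run.

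Depth divided the set unevenly. The Cre plus barcodes held from 1399 through a median of 16194 to 458911 UMIs and the Cre minus barcodes from 1959 through 17194 to 450220, with medians of 3424 and 3628 genes. Only 13 and 26 barcodes held 50000 UMIs or more, a limit chosen after the depths were seen, and these gave 64.8% and 64.3% of all UMIs of the set. A summed value is therefore mostly a value of these few deep barcodes, and many of the results below also give the value without them. Near the limit, 2 and 11 barcodes held between 40000 and 60000 UMIs. Malat1 had 0 UMIs in 61 of the 95 and 113 of the 179 barcodes, and in the deep barcodes its median share was 0.0507% and 0.0479%. The mitochondrial share ran from 0 through medians of 1.38% and 1.29% to 9.69% and 9.90%. The plot of depth against mitochondrial share shows most of the deep barcodes far to the right, some of those in Cre minus at the limit itself, and a lower band with almost no mitochondrial RNA.

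**Figure D1:**
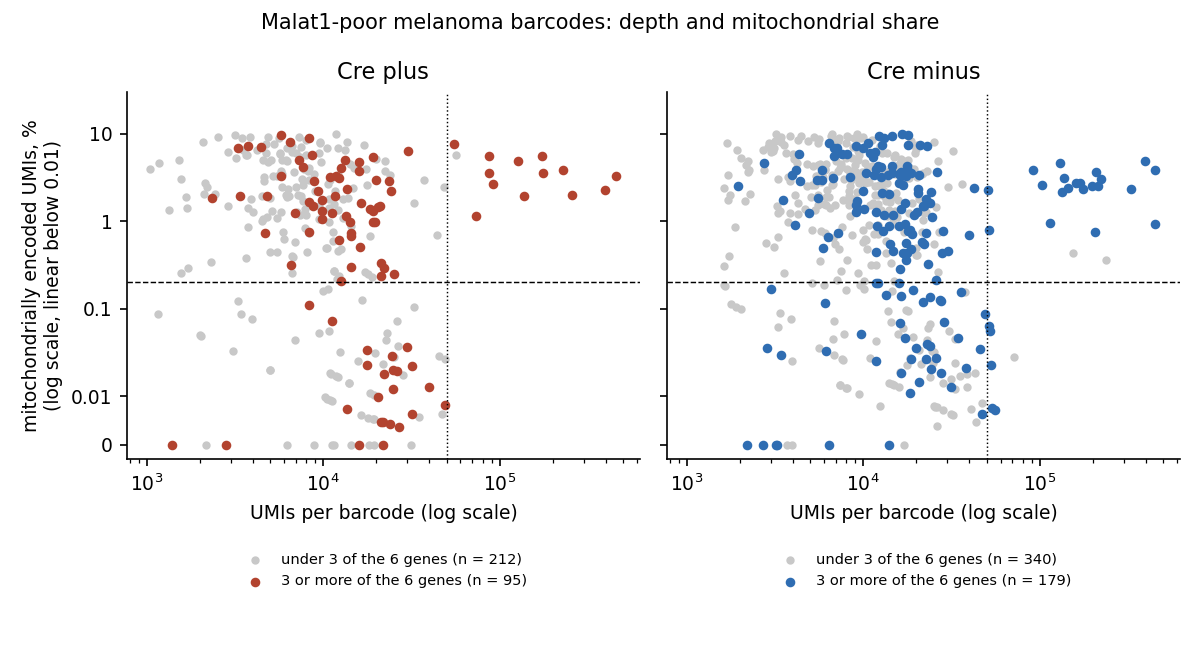
UMIs per barcode (horizontal, log scale) against the percent of mitochondrially encoded UMIs (vertical, log scale, linear below 0.01) for all Malat1-poor melanoma barcodes of each library. Coloured points are the 95 and 179 barcodes with 3 or more of the 6 cycling genes, grey points the 212 and 340 with fewer, and the lines mark 50000 UMIs and 0.2%. Of the coloured points, 13 and 26 lie to the right of 50000 UMIs, and of those to its left 24 and 44 lie under 0.2%.

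Of all Malat1-poor melanoma barcodes, 30.9% [25.8, 36.4] in Cre plus (95 of 307) and 34.5% [30.4, 38.8] in Cre minus (179 of 519) carried 3 or more of the 6 cycling genes. In the Malat1-rich melanoma barcodes the share was 66.8% and 61.0%, but these were far deeper, with median UMIs of 144294 and 137090 against 10454 and 12046. Each barcode was therefore thinned to 2000 UMIs, which left out 11 and 14 of the Malat1-poor barcodes. The share was then 11.5% [8.09, 15.7] and 17.0% [13.9, 20.6] in the Malat1-poor barcodes, and 17.5% [12.6, 23.4] and 14.7% [11.2, 18.8] in the Malat1-rich ones, and the intervals of the classes overlapped in both libraries. At 5000 UMIs it was 22.0% [17.0, 27.8] and 24.0% [20.1, 28.3] in the Malat1-poor and 28.9% [22.7, 35.6] and 33.4% [28.4, 38.7] in the Malat1-rich barcodes, higher in the Malat1-rich class in both libraries. Barcodes with over 50% haemoglobin UMIs, from red cells that do not divide, reached 3 of the 6 genes in 1 of 234 and 1 of 223 cases, at median depths of 6761 and 7831 UMIs, and in 0 of 208 and 0 of 215 after thinning to 2000, which allows up to 1.76% and 1.70%. Macrophage barcodes reached it in 16.9% and 15.3% at median depths of 25193 and 24087 UMIs, and in 3.64% and 4.17% after thinning to 2000. Lymphatic barcodes reached it in 24.3% and 14.4%, and in 9.44% and 4.43% after thinning to 2000. For blood endothelial barcodes the shares were 19.7% and 14.4%, and 8.38% and 8.02%. The few pericyte or fibroblast barcodes (31 and 21) stood at 41.9% and 38.1%, and at 13.8% and 4.76%. At 5000 UMIs their share was 21.4% and 23.5%, near that of the Malat1-poor melanoma barcodes.

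Within the set, 33 and 68 barcodes carried all 6 genes, and 25 and 38 carried exactly 3. Birc5, the survivin gene of the chromosomal passenger complex, was found in 93.7% and 95% of the barcodes, Cdk1, the kinase that starts mitosis, in 87.4% and 90.5%, and Mki67, which coats mitotic chromosomes, in 53.7% and 58.1%. In the Malat1-poor barcodes with fewer than 3 of the genes these shares were 11.3% and 12.6%, 17.0% and 20.6%, and 2.83% and 2.06%, at median depths of 7986 and 9488 UMIs. Barcodes just inside the limit were deeper than those just outside, with median UMIs of 15856 and 15979 against 7057 and 11669. With exactly 3 genes (n = 25 and 38) the mitosis list summed to 4417 and 4838 CPM, and with exactly 2 genes (n = 31 and 41) to 4220 and 3957 CPM. The replication list stood at 1322 and 1800 CPM just inside against 1488 and 1359 CPM just outside, so it was lower inside in Cre plus. Histones stood at 754 and 532 CPM just inside against 483 and 534 CPM just outside, and the nuclear-retained RNAs at 318 and 321 against 101 and 296 CPM. With all 6 genes the mitosis list was at 12162 and 10054 CPM, and with none (n = 135 and 198) 2624 and 2631 CPM. On the Malat1 side of the rule, the 11 and 22 barcodes between 0.05% and 0.1% held 875 and 830 CPM of the nuclear-retained RNAs, and the 28 and 42 cycling barcodes between 0.1% and 0.2%, outside the set, held 1542 and 1650 CPM.

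Set against the 212 and 340 Malat1-poor melanoma barcodes with fewer than 3 of the cycling genes, the set differed first in the cell-cycle genes that the rule did not name. Genes of mitosis, of DNA replication and the replication-dependent histones were higher, most of them by more than 2-fold in both libraries, while D cyclins, p21 and p27 were not, and the glycolysis genes were all somewhat lower. A gene counts as at least 2-fold higher or lower when the ratio passes 2 in the same direction in both libraries with at least 100 UMIs. Of 8678 genes measured, 4.97% were at least 2-fold higher and 0.542% at least 2-fold lower, and the median log2 ratio of all genes was 0.15 in both libraries, a shift that scaling by the median of ratios brought to 0.01 and 0.00. Among the 8678, 4385 were above 0 in both libraries and 2118 below 0 in both. The rule chose on this contrast, so the counts are a description.

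Of 55 measured mitosis genes, 51 were at least 2-fold higher, with median log2 ratios of 3.39 and 3.86. Among those that the rule did not use, Ccnb1, the cyclin that activates Cdk1, was at 80.1 against 3.03 CPM and 65.8 against 2.45 CPM, log2 ratios of 4.72 [3.66, 6.05] and 4.75 [3.89, 5.76]. Nusap1, a spindle microtubule protein, was at 98.1 against 3.90 and 77.6 against 1.34 CPM. Spc25, a subunit of the NDC80 complex that binds kinetochores to microtubules, was at 63.3 against 1.73 and 69.4 against 2.23 CPM. Both were within a few CPM of 0 outside the set. Sgo2a, which protects cohesin at centromeres, was at 46.7 against 0.87 and 44.0 against 1.34 CPM. Pbk, a mitotic kinase, was at 57.7 against 0.87 and 55.3 against 2.45 CPM. Of the rule's own genes, Cenpf had the highest ratio by its interval, 157 against 2.16 and 108 against 3.12 CPM, followed by Ube2c, the E2 enzyme of the anaphase-promoting complex, at 359 against 12.1 and 228 against 8.46 CPM, and Top2a, which untangles sister chromatids, at 257 against 9.52 and 259 against 10.0 CPM.

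Not every gene on the mitosis list followed. Pttg1, securin, stood at 63.3 against 62.3 CPM in Cre plus, a log2 ratio of 0.02 [-0.29, 0.33], and at -0.14 [-0.37, 0.08] in Cre minus. Ckap5, a microtubule polymerase, had ratios of 0.68 and 0.39, Ran, the GTPase of nuclear transport and spindle assembly, 0.47 and 0.62, and Tuba1b, an alpha tubulin, 0.72 and 0.74. All of these but Pttg1 were above 0 in both libraries.

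For DNA replication, 30 of 35 genes were at least 2-fold higher, with median log2 ratios of 1.42 and 1.81, a smaller step than for mitosis in both libraries. The rule chose barcodes by genes that act in mitosis, such as Cdk1, Birc5 and Ube2c. The larger step for mitosis therefore follows in part from the rule. Rrm2, the ribonucleotide reductase subunit made in S phase, was at 208 against 51.9 CPM and 269 against 36.5 CPM, log2 ratios of 2.0 [1.72, 2.29] and 2.88 [2.65, 3.12]. Pcna, the sliding clamp of the polymerases, was at 187 against 80.1 and 249 against 97.7 CPM, ratios of 1.23 and 1.35. The helicase subunits Mcm3 and Mcm5 had ratios of 1.51 and 1.75 and of 2.36 and 2.39. Clspn, claspin of the replication checkpoint, had the highest values of the list, 3.07 and 3.64, on levels of only 2.60 and 2.89 CPM outside the set. Ung, a DNA repair glycosylase, was at -0.03 and 0.31, the lowest of the list in both libraries. Ccne1, cyclin E1, passed 2-fold in Cre minus only, at 0.81 and 1.69.

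The replication-dependent histone messages, which end in a stem-loop and mostly lack the poly(A) tail that the assay captures, were still measurable for 13 of 20 genes, and 10 were at least 2-fold higher (medians 2.65 and 2.31). Hist1h2ae was at 475 against 17.3 CPM and 536 against 19.1 CPM, log2 ratios of 4.78 [4.33, 5.27] and 4.81 [4.50, 5.13]. The histone genes lie in clusters of similar copies, and reads may have been shared among them.

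The regulators that stand between growth signals and the cell cycle moved little. Of 17 measured D cyclins, CDK inhibitors, Rb family and Myc genes, 3 were at least 2-fold higher. These were the inhibitors Cdkn2c (1.48 and 1.21) and Cdkn2d (1.72 and 1.17) and the Rb relative Rbl1 (2.97 and 1.72), all known E2F-regulated or cycle-regulated genes. The median of the list was -0.08 and 0.07. Cyclin D genes were below 0 in both libraries, Ccnd1 at -0.46 and -0.34 and Ccnd2 at -0.55 and -0.79. So were the inhibitors Cdkn1a (p21) at -0.29 and -0.51 and Cdkn1b (p27) at -0.71 and -0.56.

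**Figure D2:**
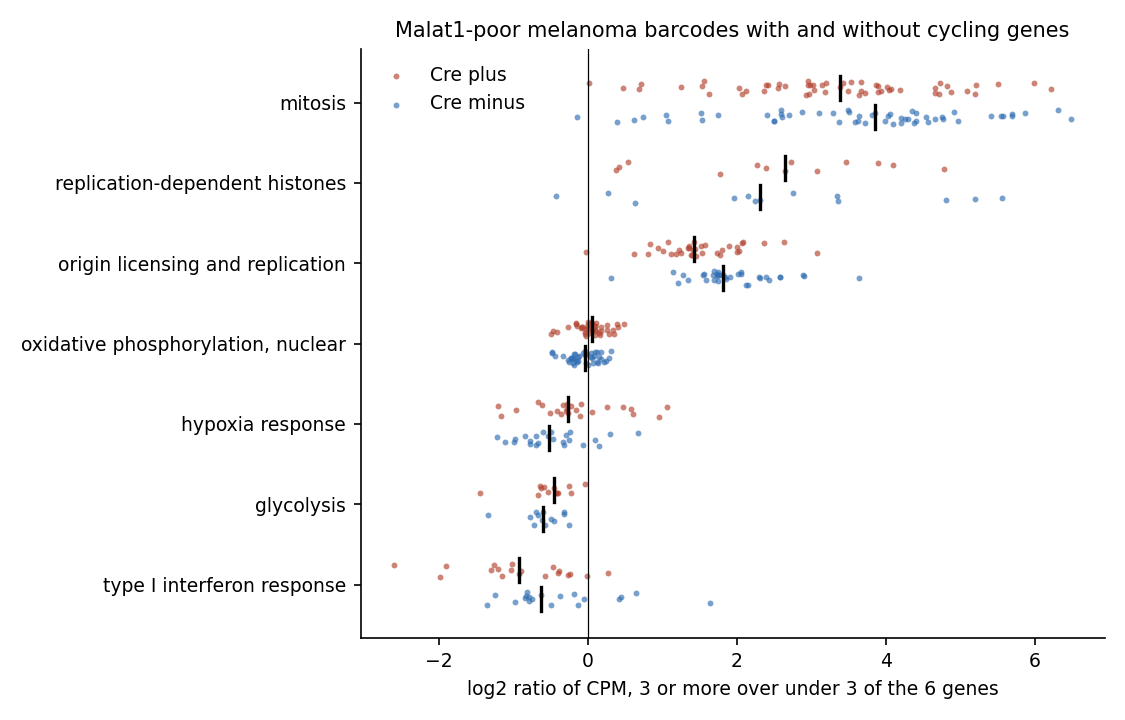
log2 ratio of CPM (horizontal) between Malat1-poor melanoma barcodes with 3 or more and with fewer than 3 of the 6 cycling genes, 1 point per measured gene of each list, red for Cre plus and blue for Cre minus. Black bars are list medians: mitosis 3.39 and 3.86, histones 2.65 and 2.31, replication 1.42 and 1.81, with glycolysis at -0.45 and -0.60 on the other side of 0.

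All 13 glycolysis genes were below 0 in both libraries, with medians of -0.45 and -0.60, and 1 was at least 2-fold lower. That was Aldoc, an aldolase, at 81.2 against 220 CPM and 84.4 against 214 CPM, log2 ratios of -1.44 [-1.65, -1.23] and -1.34 [-1.49, -1.19]. Gapdh was at 8754 against 13597 CPM and 7439 against 12045 CPM, ratios of -0.64 and -0.70. The deep barcodes bear on this list. Without barcodes of 50000 UMIs or more the medians were -0.21 and -0.34, and with both classes restricted to the middle depths of the set (47 and 89 against 77 and 111 barcodes) they were -0.07 and -0.32. The cell-cycle lists kept their side of 0 under the same restriction: mitosis at 3.71 and 4.24, replication at 1.78 and 1.99.

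Hypoxia response genes had medians of -0.27 and -0.52 (16 of 24 below 0 in both libraries), and 1 was at least 2-fold lower. Ndrg1, a gene induced under low oxygen, stood at 49.4 against 110 CPM and 34.9 against 75.5 CPM. Without the deep barcodes the medians were -0.41 and -0.61. The type I interferon response list had medians of -0.93 and -0.63 (14 of 19 below 0 in both) with no gene at least 2-fold lower in both libraries, and -0.18 and -0.38 without the deep barcodes. Isg15, a ubiquitin-like interferon product, was at 64.4 against 148 and 91.4 against 158 CPM. Nuclear genes of oxidative phosphorylation were near 0, at 0.05 and -0.04 (-0.08 and -0.19 when scaled by the median of ratios), with none of 41 past 2-fold. The pigment list was at 0.57 and 0.31, with none past 2-fold, and turned to -0.28 and -0.22 without the deep barcodes.

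The 10 genes furthest below 0 belonged to no single list. They were Atf5, Aldoc, Rras, Pgf, AY036118 (a locus that overlaps ribosomal RNA sequence), Nupr1, Cmss1, Tmsb4x, S100a11 and Atf3. Atf5, a transcription factor, was at 35.4 against 104 CPM and 31.2 against 85.5 CPM, log2 ratios of -1.55 [-1.88, -1.24] and -1.45 [-1.70, -1.21]. Atf3, a stress-induced transcription factor, was at 36.5 against 87.0 and 27.7 against 83.3 CPM. Nupr1, a chromatin protein induced by stress, was at 90.3 against 293 and 121 against 288 CPM. Pgf, placental growth factor, was at 53.6 against 164 and 29.9 against 79.5 CPM, and Tmsb4x, an actin-binding peptide, at 38.7 against 97.4 and 28.7 against 291 CPM. The unfolded protein response list, which holds Atf3 and Atf5, had a median over its 22 genes of 0.05 and 0.31, with -0.08 in Cre plus when scaled by the median of ratios, and -0.83 and -0.47 without the deep barcodes. Red-cell transcripts were lower for 4 of 4 measured genes, at 45.3 against 2945 CPM and 172 against 1694 CPM in sum. Single barcodes outside the set reached 64.6% and 37.4% haemoglobin UMIs, while the median barcode had 0.00565% and 0.00527% inside the set and 0.00710% and 0.00799% outside.

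Single barcodes differed in their balance of S phase and mitosis genes. Barcodes with at least 5000 UMIs (86 and 163, leaving out 9 and 16) were thinned to 5000 UMIs, and the 55 replication and histone genes were set against 49 mitosis genes. From the mitosis list, 7 broadly expressed genes (H2afz, Ran, Tuba1b, Tubb4b, Stmn1, Hmgb2, Arl6ip1) were left out after their values were seen. Replication and histone UMIs ranged from 1 through a median of 14.5 to 84 and from 2 through 21 to 79. Mitosis UMIs ranged from 0 through 17 to 71 and from 0 through 18 to 90. Replication exceeded mitosis in 48 and 94 barcodes, and mitosis exceeded replication in 38 and 65. A ratio of 3 or more was seen towards replication in 20 and 42 barcodes and towards mitosis in 12 and 12. No phase was assigned from these values, and the part of free RNA in them was not tested.

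**Figure D3:**
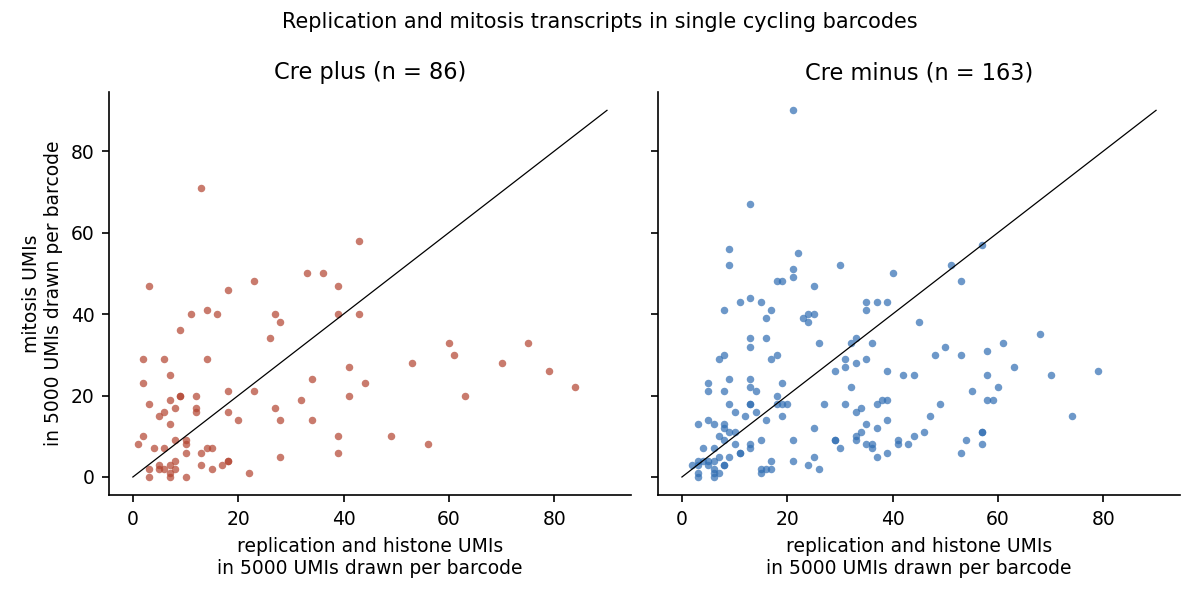
Replication and histone UMIs (horizontal) against mitosis UMIs (vertical) in single cycling Malat1-poor barcodes, each thinned to 5000 UMIs, 86 and 163. The line marks equal numbers: 48 and 94 points lie below it and 38 and 65 above it, with some at high replication and low mitosis and others the reverse.

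The cycling barcodes on the other side of the Malat1 limit, 145 and 228 Malat1-rich melanoma barcodes with 3 or more of the 6 genes, were set beside the 95 and 179. Mitosis genes had medians of 0.33 and 0.31 and replication genes of 0.15 and 0.79 on the log2 scale, while most nuclear-retained RNAs were several-fold lower in the Malat1-poor set. Genes spanning 100 kb or more, as a class, gave a smaller share of its UMIs. The classes differed in depth, with median UMIs of 153340 and 155815 in the Malat1-rich class. Of 11738 genes, 0.0596% were at least 2-fold higher in the set and 11.5% at least 2-fold lower. The median of all genes was -0.31 and -0.23, so ratios read against that shift: scaling by the median of ratios instead of the total put it at -0.01 and 0.00. Without barcodes of 50000 UMIs or more, 139 genes passed 2-fold in place of 1358, and the part of depth in the full count was not tested. Fewer UMIs can also leave fewer genes with at least 100 UMIs, so these counts cannot be compared as shares.

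Malat1 itself, which the rule used, was at 357 against 5375 CPM and 361 against 6365 CPM. Of 7 measured nuclear-retained RNAs, 5 were at least 2-fold lower and all 7 were below 0 in both libraries, with medians of -2.70 and -2.02. Neat1, the RNA of paraspeckles, was at 15.7 against 136 and 12.8 against 132 CPM, log2 ratios of -3.11 [-3.52, -2.74] and -3.36 [-3.68, -3.06]. Kcnq1ot1, an imprinted nuclear RNA, was at 11 against 73.3 and 6.12 against 74.8 CPM. Lncpint was at 11.6 against 105 and 8.75 against 79.3 CPM. The rest of the genes furthest down were protein-coding genes with long introns. Pde4d, a cAMP phosphodiesterase gene (chr13:108449948-109953461), was at 260 against 1583 and 276 against 1700 CPM. Prkg1, a cGMP-dependent kinase gene (chr19:30564489-31765033), was at 118 against 889 and 125 against 720 CPM, and Chsy3, Unc5c, Ankfn1, Pde10a and Maml2 had ratios between -2.40 and -2.78. Genes spanning 100 kb or more gave 4.29% and 4.51% of UMIs in the set, 3.58% and 3.88% in the Malat1-poor barcodes with fewer cycling genes, and 8.79% and 8.73% in the Malat1-rich cycling barcodes.

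The cell-cycle lists had medians above 0 in this comparison. Of the mitosis list 38 of 56 genes were above 0 in both libraries, with Aurkb, the kinase of the chromosomal passenger complex, the only member at least 2-fold higher, at 90.1 against 42.8 and 92.2 against 44.4 CPM, log2 ratios of 1.07 [0.89, 1.26] and 1.05 [0.92, 1.19]. Cdk1 was at 260 against 141 and 223 against 123 CPM. Tk1, thymidine kinase, was at 95 against 55.1 and 113 against 53.2 CPM, and Aurka, Kpna2, Pclaf, Stmn1 and Pbk were also among the 10 genes furthest up. The other members of those 10 were AY036118 at 0.85 and 1.13 and Cmss1 at 0.74 and 0.78. Of 35 replication genes, 25 were above 0 in Cre plus and 34 in Cre minus. Without the deep barcodes, mitosis stood at -0.01 and 0.33 and replication at 0.23 and 1.51.

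Other lists differed in small steps that few genes took past 2-fold. Of all 11738 genes, 6734 were below 0 in both libraries and 2591 above 0 in both. Cytosolic ribosomal protein genes were above 0 in both libraries for 79 of 81 genes, with medians of 0.26 and 0.26. The 26 genes of a secretory and membrane list, chosen after the data were seen, were below 0 in both libraries for 25 genes (medians -0.49 and -0.41), and 1 was at least 2-fold lower. All 13 mitochondrially encoded genes were below 0, at -0.55 and -0.94, but at 0.20 and 0.65 without the deep barcodes. Immediate-early and heat shock genes had medians of -0.76 and -0.65, with 5 of 21 at least 2-fold lower, among them Jun at 78.5 against 248 and 79.2 against 228 CPM. The pigment list had medians of -0.25 and -0.31, and 0.05 and -0.08 when scaled by the median of ratios.

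Within the set, the 82 and 153 barcodes under 50000 UMIs differed from the 13 and 26 deep ones in some of the same lists. Of 7572 genes, 0.674% were at least 2-fold higher and 7.17% at least 2-fold lower in the shallower barcodes, while the median of all genes was 0.00 and -0.04. Among the 7572, 2707 were above 0 in both libraries and 2975 below 0 in both. Among the genes furthest down were Malat1 and several long genes, although genes spanning 100 kb or more differed little as a class, at 3.56% against 4.70% and 3.77% against 4.93% of UMIs. Pde4d stood at 14.1 against 394 CPM and 23.2 against 417 CPM, Unc5c at 3.92 against 87.0 and 5.71 against 102 CPM, and Malat1 at 69.9 against 512 and 89.7 against 513 CPM. The immediate-early gene Fosb had 0 UMIs in the shallower barcodes of both libraries and 29 and 83 UMIs in the deep ones. All 26 secretory and membrane genes were below 0 in both libraries, with medians of -1.48 and -1.02, and 14 were at least 2-fold lower. Of the pigment list, 8 of 18 were at least 2-fold lower (medians -1.21 and -0.88), among them Oca2, a melanosome channel gene, at 23.5 against 162 and 34.3 against 154 CPM. Vegfc, which the name of the line gives as an added gene, was at 303 against 1654 and 481 against 1392 CPM.

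The genes higher in the shallower barcodes were few. AY036118 was at 438 against 62.7 CPM and 732 against 61.5 CPM. Cmss1, at 640 against 147 and 827 against 143 CPM, and Filip1l, at 117 against 11.5 and 125 against 25 CPM, overlap each other on opposite strands, so their reads may not be separable. Camk1d was at 204 against 37.5 and 255 against 44.3 CPM. Camk1d, Cmss1, Filip1l and Ulk4 were all among the 10 furthest up and each spans more than 100 kb, so long genes stood on both sides. Cell-cycle lists were above 0: mitosis at 0.46 and 1.01, replication at 0.43 and 0.58, and histones at 0.54 and 0.90 with 5 of 13 at least 2-fold higher. All 13 glycolysis genes were above 0, with medians of 0.46 and 0.38. The 2 depth classes also differed in Malat1, which the rule limits, and the part of depth in these ratios was not tested.

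A second division ran through the shallower barcodes. In 24 of 82 Cre plus and 44 of 153 Cre minus barcodes, 29.3% and 28.8%, mitochondrially encoded UMIs were under 0.2%, a limit set after the values were seen. Under the same limit were 0 of 13 and 5 of 26 deep barcodes. So were 6 of 145 and 42 of 228 Malat1-rich cycling barcodes, 4.14% and 18.4%, so low shares were not particular to the set. Of the shallower barcodes, 8 and 17 lay between 0.1% and 0.4%. Among these, 1 of the 24 and 13 of the 44 barcodes under the limit stood close to it. The barcodes with almost no mitochondrial RNA were not the poorest: their median depths were 21907 and 18479 UMIs against 12265 and 14490 in the others, and their medians of genes detected were 3902 and 3753 against 2947 and 3362. Of 4118 genes, 0.219% were at least 2-fold higher and 2.45% at least 2-fold lower in them, which includes the 13 mitochondrially encoded genes used for the division. Among the 4118, 1671 were above 0 in both libraries and 921 below 0 in both.

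Messages on the secretory and membrane list, which are translated at the endoplasmic reticulum, were low in the same barcodes. The list was chosen after the data were seen, so its counts are a description. All 25 measured secretory and membrane genes were below 0 in both libraries, with medians of -1.80 and -1.55, and 17 were at least 2-fold lower. The list summed to 1737 against 5584 CPM and 2678 against 6898 CPM, and over single barcodes its medians were 1270 against 4625 and 1616 against 6341 CPM. Hsp90b1, the chaperone of the endoplasmic reticulum, stood at 69.9 against 404 and 157 against 540 CPM, log2 ratios of -2.53 [-3.06, -2.04] and -1.79 [-2.06, -1.52]. Pdia6, a disulfide isomerase, was at 39.7 against 169 and 45.9 against 256 CPM, and Canx, calnexin, at 68.0 against 266 and 93.0 against 282 CPM. Scd2, a membrane-bound fatty acid desaturase, was at 127 against 481 and 187 against 652 CPM. Unfolded protein response genes, many of which encode such chaperones, had medians of -1.35 and -0.97 with 8 of 18 at least 2-fold lower.

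The pigment genes were uneven, with 4 of 17 at least 2-fold lower and medians of -0.55 and -0.51. Pmel, a membrane protein, was at 361 against 1628 CPM and 642 against 2102 CPM, log2 ratios of -2.17 [-2.40, -1.95] and -1.71 [-1.85, -1.58]. Dct, a membrane-bound enzyme, was at 1784 against 5350 and 2254 against 6607 CPM. Mitf, a transcription factor, was at 350 against 156 and 298 against 227 CPM, and Sox10 at 138 against 101 and 120 against 105 CPM. Rab27a and Rab38, small GTPases made in the cytosol, were at 100 against 73.8 and 148 against 93.6 CPM and at 335 against 176 and 319 against 274 CPM. Not every membrane protein was low: Mlana was at 614 against 788 and 714 against 1017 CPM, and the channel gene Trpm1 at 456 against 256 and 450 against 456 CPM. These genes other than Pmel and Dct were picked after their values were seen, and none of them passed 2-fold in both libraries.

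Most messages on the cytosolic list did not differ in this way, with Tmsb4x, thymosin beta, the only one at least 2-fold lower. The cytosolic list, also chosen after the data were seen, had medians of 0.04 and 0.04 and sums of 63110 against 65763 and 61501 against 56696 CPM. Ribosomal protein genes were at 0.06 and 0.09, and nuclear genes of oxidative phosphorylation, whose proteins are imported into mitochondria from the cytosol, at -0.08 and -0.16. Replication genes were at 0.19 and 0.26. Other lists stood lower in Cre plus only. Mitosis was at -0.41 (45 of 52 genes below 0) and 0.07, and glycolysis at -0.29 (13 of 13 below 0) and -0.04. Hypoxia response genes were at -0.61 (18 of 18 below 0) and 0.05. Malat1 was higher in the barcodes with almost no mitochondrial RNA, at 119 against 34.9 and 163 against 51.2 CPM. These values rest on 63 against 26 and 138 against 82 UMIs. The median barcode had 0 Malat1 UMIs in both groups, and single barcodes with almost no mitochondrial RNA held up to 29 and 46. Hnrnpab, an RNA-binding protein, was also higher in sum, at 911 against 585 and 915 against 613 CPM. Hif1a, the oxygen-regulated factor, was at 448 against 277 and 413 against 269 CPM, and both were under 2-fold. The same division in the Malat1-poor barcodes with fewer cycling genes gave 3890 against 8275 and 3676 against 8534 CPM for the secretory list, so the pattern was not limited to cycling barcodes.

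**Figure D4:**
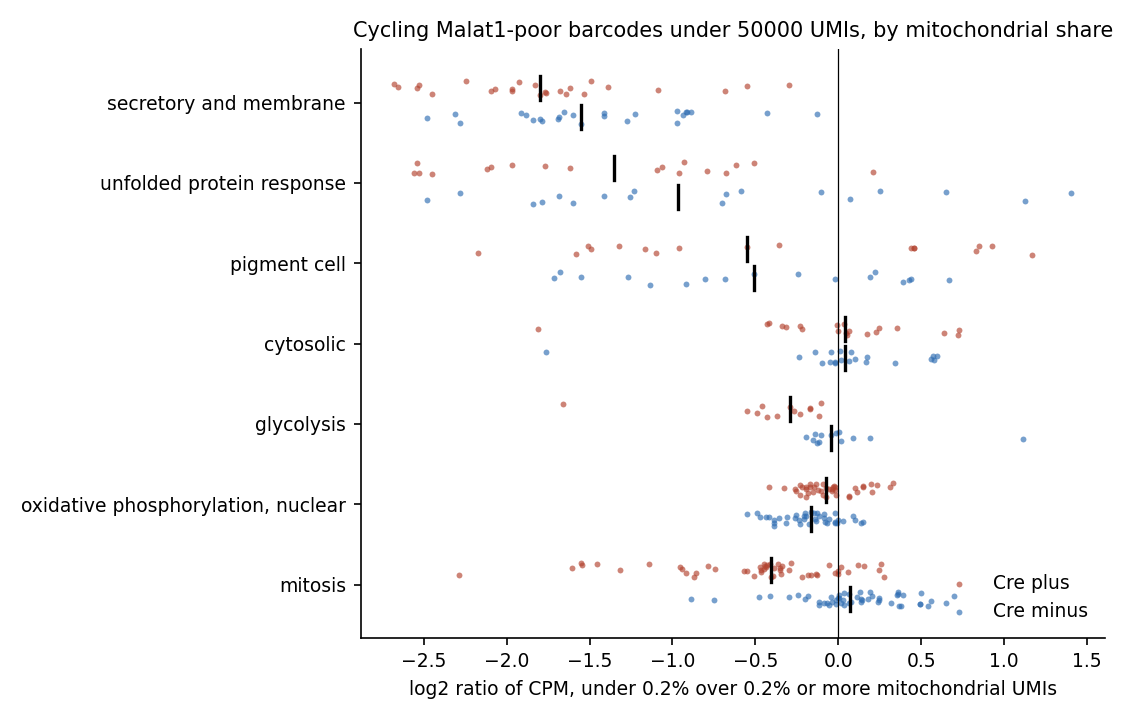
log2 ratio of CPM (horizontal) between cycling Malat1-poor barcodes with under 0.2% and with 0.2% or more mitochondrially encoded UMIs, among those under 50000 UMIs, 1 point per measured gene, red for Cre plus and blue for Cre minus. Black bars are medians: secretory and membrane genes stand at -1.80 and -1.55, while cytosolic genes stand at 0.04 and 0.04. Both of these lists were chosen after the data were seen.

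Between the genotypes, the set showed small shifts of whole lists and few large changes of single genes. Replication and cholesterol synthesis genes stood lower in Cre plus, every measured gene of each list below 0, and hypoxia response genes stood somewhat higher. Of 7572 genes, 0.0924% were at least 2-fold higher in Cre plus (7 genes) and 0.291% at least 2-fold lower (22 genes), and the median of all genes was -0.08. Below 0 stood 4872 of the 7572 and above 0 stood 2700, so counts of a list below 0 are read against that share. Scaled by the median of ratios, 11 genes were higher and 16 lower.

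All 35 replication genes were below 0, between -0.74 and -0.02, with a median of -0.44, and none was past 2-fold. The median was -0.43 without the deep barcodes and -0.32 as a mean over barcodes. Pcna stood at 187 CPM and 249 CPM, a log2 ratio of -0.41 [-0.54, -0.28], with -0.40 in the shallower and -0.41 in the deep barcodes. Rrm2 stood at 208 and 269 CPM and Mcm2 at 92.3 and 120 CPM. Rad51ap1, of homologous recombination, was at 25.1 and 48.3 CPM, -0.94 [-1.29, -0.60], and E2f8, a repressor made in S phase, at 9.67 and 20.3 CPM. Histones had a median of -0.05, and 0.03 when scaled by the median of ratios.

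Mitosis genes had a median of 0.19, with 42 of 55 above 0, but -0.14 without the deep barcodes and -0.04 as a mean over barcodes. Ube2c was at 359 and 228 CPM, 0.66 [0.55, 0.76], and its ratio was 1.27 in the deep and 0.14 in the shallower barcodes. The direction of this list thus rested on 13 and 26 barcodes.

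All 18 cholesterol synthesis genes were below 0 (median -0.35, and -0.27 without the deep barcodes), among them Fdps, farnesyl diphosphate synthase, at 619 and 708 CPM. Of the hypoxia response genes 17 of 23 were above 0 (median 0.31, and 0.20 without the deep barcodes). Higd1a, a mitochondrial protein induced under low oxygen, was at 1996 and 1333 CPM, Bnip3, of mitophagy, at 643 and 517 CPM, and 12 of 13 glycolysis genes were above 0 with a median of 0.13. Unfolded protein response genes had a median of -0.29 with 18 of 21 below 0. Of these, Chac1 was past 2-fold at 5.80 and 18.4 CPM, but at -0.28 in the shallower barcodes.

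The medians of both interferon lists changed sign without the deep barcodes, while single genes of them did not all do so. Those of interferon-gamma and antigen presentation had a median of -0.09, and 0.14 without the deep barcodes, and those of type I interferon -0.42, and 0.02. Ifit3, an antiviral protein, had 29 and 183 UMIs, 8.01 and 26.7 CPM, a log2 ratio of -1.74 [-2.35, -1.17], with -0.83 [-1.52, -0.19] in the shallower and -4.06 in the deep barcodes. Cxcl10, the T cell chemokine, was at 20.7 and 43.2 CPM, with 39.9% of its Cre minus UMIs in 1 barcode and a ratio of -0.86 [-1.5, -0.27] in the shallower barcodes. B2m, the light chain of MHC class I, was at 667 and 559 CPM, H2-K1 at 318 and 224 CPM, and Cd74, the invariant chain of MHC class II, at 76.0 and 83.3 CPM. In the shallower barcodes, the ratio of H2-K1 was -0.23 [-0.48, 0.01] in place of 0.51, that of B2m 0.12 [-0.01, 0.26] in place of 0.25, and that of Cd74 0.38 [0.01, 0.75] in place of -0.13. A single Cre minus barcode held 66.7% of the Cd74 UMIs of the set in that library.

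The genes furthest up in Cre plus had no common list. Ccdc155, a nuclear envelope protein of meiosis, was at 62.2 and 22.6 CPM, 1.46 [1.16, 1.76], with 45.8% of its Cre plus UMIs in 1 barcode. Selenbp1, a selenium-binding protein, was at 246 and 114 CPM, 1.11 [0.97, 1.25], with 0.68 in the shallower and 1.44 in the deep barcodes. Isg20, an exonuclease, was at 41.7 and 18.1 CPM with 45.7% of its Cre plus UMIs in 1 barcode. Tnfrsf9, the receptor 4-1BB, was at 61.9 and 32.8 CPM and at -0.06 in the shallower barcodes. Vegfc stood at 1178 and 1067 CPM, 0.14, but at -0.67 in the shallower barcodes. The red-cell genes, RNA of another cell type, were lower in Cre plus for 3 of 3 measured, with Hbb-bs at 29.3 and 103 CPM, and their part in the other ratios was not tested.

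**Figure D5:**
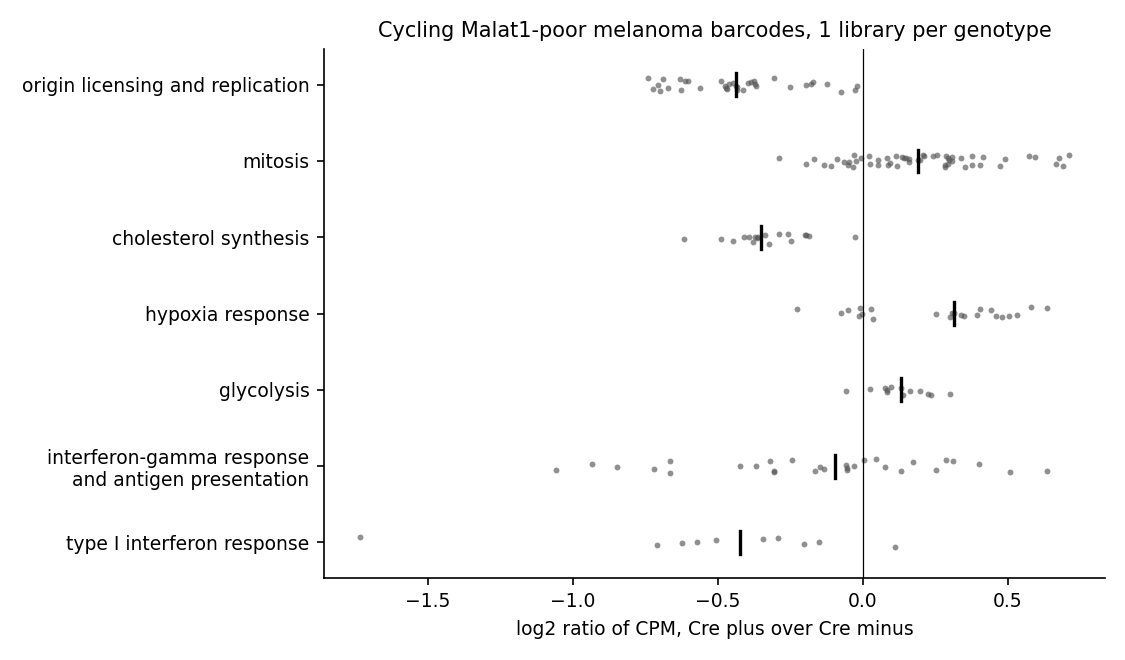
log2 ratio of CPM, Cre plus over Cre minus (horizontal), in the cycling Malat1-poor barcodes, 1 grey point per measured gene of each list and a black bar at the list median. All replication genes (median -0.44) and all cholesterol synthesis genes (median -0.35) lie below 0, while mitosis genes (median 0.19) and hypoxia response genes (median 0.31) lie on both sides.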

How the data were processed

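Droplet 3′ single-cell libraries (10x Genomics, v3.1 chemistry per the labels' protocols) were analysed from the deposited matrices of UMI counts per gene and barcode, which are not normalized. Per the submitters' processing notes, the authors used Cell Ranger 7.0.0 and mm10, and other settings were not given in the sources used here. The members, lists and rules were chosen with earlier results of these data known. Values in a class of barcodes are CPM, summed UMIs scaled to 1000000 per class. log2 ratios carry exact conditional binomial 95% intervals and shares Clopper-Pearson intervals, which cover counting error only. A gene was measured with at least 100 UMIs in the classes compared and past 2-fold when the total-scaled ratio passed 2, in both libraries where classes were compared. A gene at 0 in a class is given by its UMIs, with no fold. Thinning drew UMIs without replacement with a fixed seed. No doublet caller was run, and with 1 library per genotype no test across samples was possible, so the groups are given as measured. Genes were named by rule: those of the gate, the top 4 of each list by UMIs where a list is described, and the 10 highest and 10 lowest of each comparison by the interval bound nearest to 0, with a UMI in at least 5% of barcodes of a library and without mitochondrial, ribosomal protein, haemoglobin, sex-linked and unnamed genes. Other listed genes in the text, the deep and mitochondrial divisions, and the secretory and cytosolic lists were chosen after values were seen. Cyr61 and Ctgf had no row under these symbols. Gene spans come from GENCODE M21 (GRCm38). Genes were in 32285 rows. Scripts ran on Python 3.11.15, numpy 2.4.6, pandas 2.3.3, scipy 1.17.1 and matplotlib 3.10.9, and the ratio code was tested on simulated data. Alternatives covered the limits of the rule on genes, mitochondrial share, melanocyte UMIs, Malat1 and cycling genes. The limit of 2 times each other panel was not varied. Further alternatives covered mixed barcodes, depth matching, thinning, scaling, weighting by barcode and the UMI minimum.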

Additional observations from a re-analysis of the deposited data

Results flagged for a closer look

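Summed over the genes of a list, 4 ratios had opposite signs in Cre plus and Cre minus with both counting intervals away from 0. The difference between the libraries was not tested. Against Malat1-poor barcodes with fewer cycling genes, the log2 ratio of interferon-gamma response and antigen presentation genes was -0.14 in Cre plus and 0.17 in Cre minus. For the unfolded protein response it was -0.053 and 0.26, and for nuclear genes of oxidative phosphorylation 0.076 and -0.042. Against Malat1-rich cycling barcodes, the ratio of hypoxia response genes was 0.14 and -0.20.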

How the results depend on the processing

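No paired analysis was possible because each genotype has 1 library. The share of Malat1-poor barcodes in the set, 30.9% and 34.5%, was 41.0% and 42.4% with at least 2 of the 6 genes, 22.8% and 27.2% with at least 4, 11.5% and 17.0% after thinning to 2000 UMIs and 22.0% and 24.0% after thinning to 5000. The number of genes past 2-fold between genotypes, 29, was 16 without barcodes of 50000 UMIs or more, 221 as a mean over barcodes, and 99 or 9 with a minimum of 50 or 200 UMIs. Against Malat1-poor barcodes with fewer cycling genes it was 301 without mixed barcodes and 218 with matched depth, in place of 478. Against Malat1-rich cycling barcodes it was 139 without the deep barcodes, 85 with matched depth (9 and 25 Malat1-rich barcodes left), 2163 as a mean over barcodes and 814 with median-of-ratios scaling, in place of 1358. For the nuclear-retained RNAs in Cre plus, the summed ratio over Malat1-poor barcodes with fewer cycling genes turned to -0.019 without the deep barcodes and to -0.060 with matched depth. In the main settings the counts of genes past 2-fold, 29, 478 and 1358, were out of 7572, 8678 and 11738 measured genes. Leaving out barcodes or changing the UMI minimum also changes how many genes are measured, so the other counts cannot be compared as shares. The causes were not tested.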
